A study of Pistacia chinensis with 8 samples.

Results

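At stage C of floral development, inflorescence buds that carry stamens were compared with buds that carry pistils alone in Chinese pistache (Pistacia chinensis), a tree with separate male and female plants and, rarely, monoecious ones. The comparison takes 4 of the 8 small RNA libraries of the series and was chosen by the stage and sex type in the labels. The stamen-bearing side was male buds (strain X1) and monoecious bisexual buds (strain T2), and the pistillate side was female buds (strain C1) and monoecious female buds (strain T2). Each sex type was 1 library, so the class of a flower was represented by 2 libraries, and the labels do not say whether a library came from 1 tree or from a pool. Male and female buds differed in strain as well as in sex, while bisexual and monoecious female buds shared strain T2. The question was which miRNAs separate the flower classes in the dioecious and in the monoecious plants alike.

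Plant miRNAs are short RNAs, cut from a hairpin precursor by a Dicer-like enzyme, that guide an Argonaute protein to messenger RNAs with a nearly complementary site and cause their cleavage or block their translation. Many families are shared across flowering plants and act on transcription factors that pattern flowers. In Arabidopsis, miR167 acts on the auxin response factors ARF6 and ARF8, which are needed for anther opening and ovule development, and miR160 acts on other auxin response factors (ARF10, ARF16 and ARF17), of which ARF17 is needed for pollen wall formation. miR398 acts on copper/zinc superoxide dismutases and their chaperone, and its level follows copper supply. miR172 acts on AP2-like genes of floral organ identity.

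Depth was similar in the 4 libraries, at 419169 reads on miRNA rows in male, 492859 in bisexual, 473553 in female and 512244 in monoecious female buds. Before scaling, 3 reads equalled 5.86 to 7.16 CPM, which are counts relative to the library total. Rank correlations across the 471 miRNA rows lay between 0.91 and 0.94 for every pair of libraries, and the pair of stamen-bearing libraries, at 0.91, was no more alike than male and female buds at 0.92. Levels below are CPM after TMM scaling, a factor per library that centres most rows. Many rows carry the names of 1 family in different species and hold largely the same reads, so rows of a family are not independent.

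The flower classes were separated in both sexual systems by rows of 3 families, miR398, miR167 and miR160, all higher in stamen-bearing buds, and by 1 predicted miRNA, novel_60, which was lower. Of the 211 rows with at least 50 reads over the 4 libraries, 16 had at least 2 times the pistillate level in male against female and in bisexual against monoecious female buds (7.58%), and 1 had at most 0.5 times that level in both (0.474%). The 16 higher rows made 10 groups of near-identical rows. All 16 belonged to miR167, miR160 or miR398. Most other rows did not show a shared direction. The male against female ratio and the bisexual against monoecious female ratio pointed the same way in 103 of the 211 rows and opposite ways in 108.

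In the edgeR quasi-likelihood test of stamen-bearing against pistillate buds, 2 of 236 rows passed at a Benjamini-Hochberg adjusted p under 0.05 (0.847%), and both were higher. They were ath-miR398a-3p and ahy-miR398, which hold nearly the same reads and count as 1 signal. The spread in this test was that between the dioecious and the monoecious library of a class, not between replicate trees. At an unadjusted p under 0.05 there were 26 rows, 21 higher and 5 lower. The higher ones were 9 miR167, 5 miR160, 3 miR398, 2 miR159 and 2 predicted rows, and the lower ones were 2 miR477 and 3 predicted rows. DESeq2 called 16 of 236 rows (6.78%), with 9 miR167, 2 miR398 and 1 miR160 rows among the 14 higher ones.

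**Figure D1:**
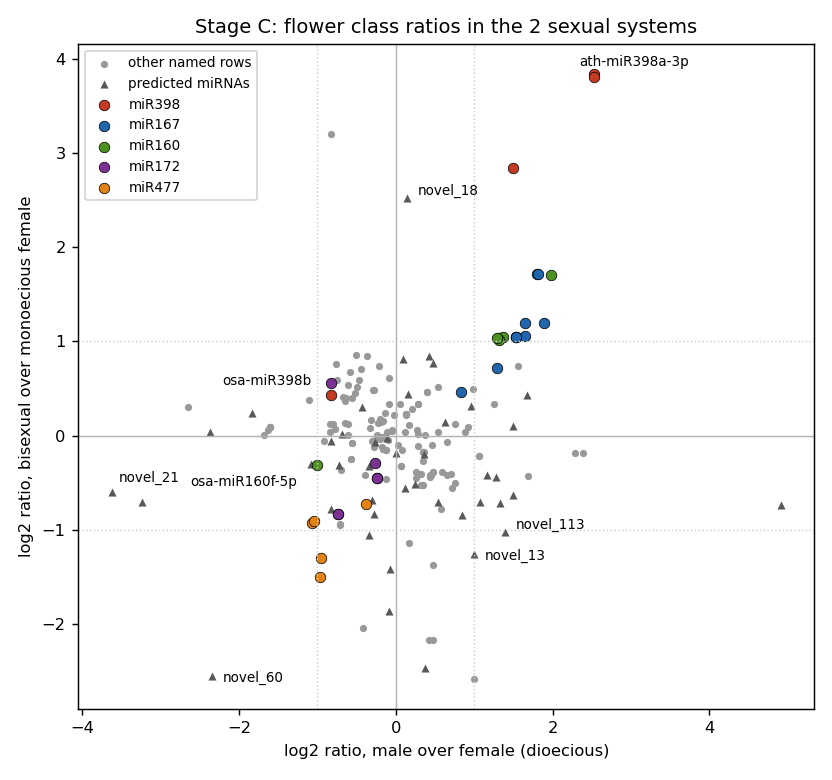
Each point is 1 miRNA row with at least 50 reads at stage C, placed by its log2 ratio in male over female buds (x axis) and in bisexual over monoecious female buds (y axis), with dotted lines at a ratio of 2 in either direction and 5 families in colour. The upper right corner beyond both lines holds the 16 rows of miR398, miR167 and miR160, the lower left corner holds novel_60, and the other rows spread without a shared direction.

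The row ath-miR398a-3p had the largest separation by the smaller of its 2 ratios, at 558 CPM in male and 952 CPM in bisexual buds, against 96.8 CPM in female and 68.1 CPM in monoecious female buds. Both stamen-bearing libraries lay far above both pistillate ones. The level was 5.76 times that of female buds in male buds (exact conditional binomial 95% interval 4.16 to 8.15) and 14.0 times that of monoecious female buds in bisexual buds (9.96 to 20.2). Each sex type was 1 library, so all intervals here describe counting error alone. The reads also carried no molecular identifiers. Over the classes the mean was 755 ± 279 CPM in stamen-bearing and 82.4 ± 20.3 CPM in pistillate buds (SD, n = 2 libraries each), a log2 change of 3.19 (SE 0.49, edgeR adjusted p = 0.0114). The call did not hold without the bisexual library (adjusted p = 0.0530), the female library (0.491) or the monoecious female library (0.465), with sexual system as a term (0.132), with near-identical rows kept once (0.0862), or over all 8 libraries without (0.998) and with sexual system (0.711), while the log2 change stayed between 2.76 and 3.53 in all 13 alternatives.

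The other miR398 rows divided. ath-miR398b-3p, with fewer reads, went the same way at 15 and 56 reads in male and bisexual buds, against 6 and 8 reads in female and monoecious female buds, and its log2 change of 2.35 (SE 0.70) had an edgeR adjusted p of 0.159. osa-miR398b, the miR398 row with most reads, did not separate the classes. It stood at 788 CPM in male and 2030 CPM in bisexual buds, against 1401 CPM in female and 1511 CPM in monoecious female buds, so the male library was the lowest and the bisexual one the highest (log2 change -0.05, SE 0.47).

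The balance of these miR398 rows inside each library does not depend on scaling. Of the reads on ath-miR398a-3p and osa-miR398b together, ath-miR398a-3p took 41.4% in male buds (exact binomial 95% interval 37.3 to 45.7%) and 31.9% in bisexual buds (29.6 to 34.3%), against 6.46% in female buds (4.73 to 8.58%) and 4.31% in monoecious female buds (3.04 to 5.92%). The classes did not overlap in this share, a comparison that was chosen after the values were seen. At stage B they did overlap, at 18.2% in male and 0% in bisexual buds (0 of 55 reads, upper bound 6.49%), against 11.3% in female and 11.3% in monoecious female buds. The summed miR398 family moved less evenly, at 1.14 times the female level in male buds and 2.89 times the monoecious female level in bisexual buds, with a log2 change of 1.002 (SE 0.51, edgeR adjusted p = 0.973).

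miR167 was higher in stamen-bearing buds in every row that could be tested. All 10 tested rows, which made 7 groups of near-identical rows, lay above both pistillate libraries in both stamen-bearing ones, while 17.4% of all tested rows did so. The row ptc-miR167f-5p was the most even, at 1443 CPM in male and 1484 CPM in bisexual buds, against 411 CPM in female and 454 CPM in monoecious female buds. It was 3.51 times the female level in male buds (95% interval 2.97 to 4.16) and 3.27 times the monoecious female level in bisexual buds (2.83 to 3.80). The spread within a class was small beside this difference, at 1464 ± 29.4 CPM in stamen-bearing and 433 ± 30.1 CPM in pistillate buds (SD, n = 2 each). Its log2 change of 1.76 (SE 0.38) missed the edgeR threshold at an adjusted p of 0.0691 and passed with DESeq2 (adjusted p = 2.04e-05).

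The other miR167 rows differed in size rather than in direction. gma-miR167i had 870 CPM in male and 695 CPM in bisexual buds, against 235 CPM in female and 303 CPM in monoecious female buds. vvi-miR167c had 1232 and 968 CPM in male and bisexual buds, against 393.7 and 422 CPM in female and monoecious female buds. In gma-miR167h the same order of libraries gave 1197 and 863 CPM against 383 and 414 CPM. Apart from ptc-miR167f-5p and its near-identical partner gra-miR167c, the male library was the higher of the stamen-bearing pair in each tested row. ath-miR167d, which holds the reads of osa-miR167d-5p and nearly those of bna-miR167d, had 1373 and 1047 CPM in male and bisexual buds, against 472.9 and 509 CPM in female and monoecious female buds.

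The miR167 row with most reads, ath-miR167a-5p, had 2333 CPM in male and 1651 CPM in bisexual buds, against 957 CPM in female and 1002 CPM in monoecious female buds. Its ratio was 2.44 in the dioecious and 1.65 in the monoecious plants, so it fell outside the 2-fold rule. aly-miR167b-3p, named for the other arm of the hairpin, had the smallest ratios, 1.79 and 1.37. As a summed family miR167 took 1.27% of reads in male and 1.12% in bisexual buds, against 0.436% in female and 0.499% in monoecious female buds. The family's log2 change of 1.44 (SE 0.27) had the smallest p of 90 families and predicted miRNAs tested, with an edgeR adjusted p of 0.180. None of these 90 passed (0.0%). An unadjusted p below 0.05 was found in 5 of them, and the number called by DESeq2 was 0 as well.

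**Figure D2:**
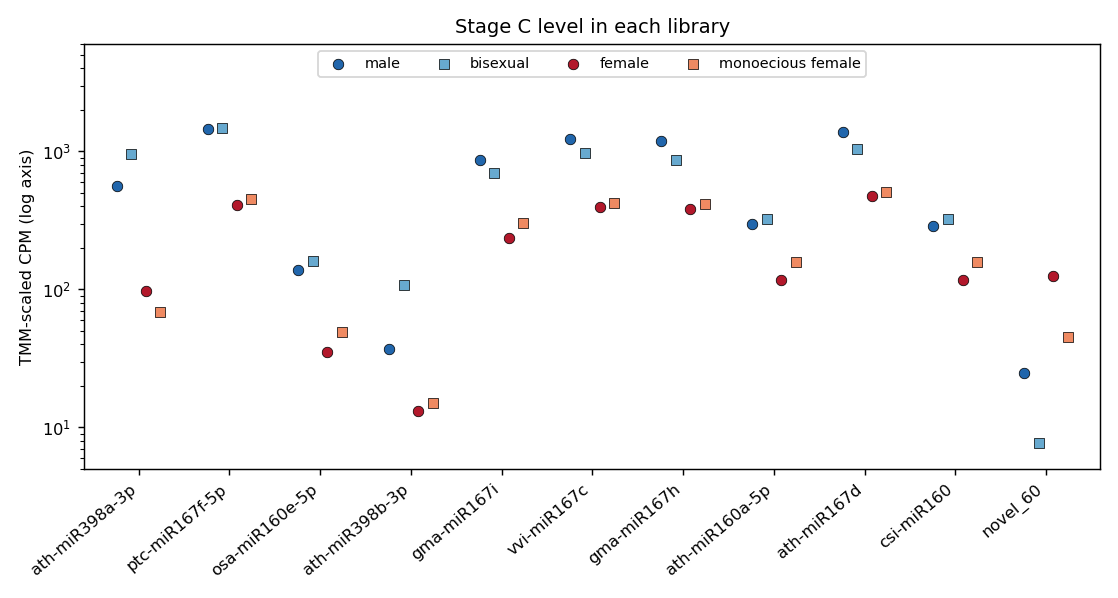
Level of the 11 rows that separated the classes in both systems, 1 per group of near-identical rows, in each stage C library (TMM-scaled CPM, log axis; circles are dioecious and squares monoecious plants). In the first 10 rows the male and bisexual points lie above the female and monoecious female points, and in novel_60 they lie below.

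In miR160, 5 of 6 tested rows were higher in both stamen-bearing libraries and 1 was lower in both, while 17.4% and 15.7% of all tested rows did so. The 6 rows made 4 groups of near-identical rows. osa-miR160e-5p had 139 CPM in male and 161 CPM in bisexual buds, against 35.2 CPM in female and 49.2 CPM in monoecious female buds. This was 3.94 times the female level (95% interval 2.23 to 7.37) and 3.27 times the monoecious female level (2.08 to 5.29), with a log2 change of 1.82 (SE 0.47) at an edgeR adjusted p of 0.159. ath-miR160a-5p had 2.57 times the female level in male buds, from 121 against 53 reads, and 2.07 times the monoecious female level in bisexual buds. The 3 near-identical rows csi-miR160, aau-miR160 and gma-miR160b had 2.44 to 2.49 times the female level in male buds and 2.02 to 2.05 times the monoecious female level in bisexual buds.

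osa-miR160f-5p was the exception, at 66.9 CPM in male and 87.1 CPM in bisexual buds, against 134 CPM in female and 108 CPM in monoecious female buds. Its log2 change was -0.64 (SE 0.45, edgeR adjusted p = 0.771). Of the reads on osa-miR160e-5p and osa-miR160f-5p together, osa-miR160e-5p took 67.5% in male buds (exact binomial 95% interval 56.3 to 77.4%) and 64.8% in bisexual buds (55.9 to 73.1%), against 20.8% in female buds (12.4 to 31.5%) and 31.3% in monoecious female buds (21.6 to 42.4%). This pair was also chosen after its values were seen. At stage B the share was 28.0% in male buds and 0% in bisexual buds (0 of 13 reads, upper bound 24.7%), against 20.1% in female and 12.6% in monoecious female buds. The summed miR160 family was 2.12 times the female level in male and 2.32 times the monoecious female level in bisexual buds, with a log2 change of 1.16 (SE 0.40) and an edgeR adjusted p of 0.769.

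In the other direction, miR477 and miR172 had most of their rows lower in stamen-bearing buds, though no row passed the test. These families were singled out after their values were seen. miR477, which acts on GRAS genes in some plants, lay lower in both stamen-bearing libraries in 5 of 6 tested rows, while 15.7% of all tested rows did so. Its row mes-miR477a had 223 and 164.5 CPM in male and bisexual buds, against 468 and 312 CPM in female and monoecious female buds. The ratios of 0.476 and 0.527 left it just outside the 2-fold rule, as were mes-miR477d, csi-miR477b and nta-miR477a, whose ratio nearer to 1 was 0.514, 0.517 and 0.535. The summed miR477 family had a log2 change of -0.89 (SE 0.44, edgeR adjusted p = 0.973).

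miR172 was lower in both stamen-bearing libraries in 5 of 6 tested rows as well, beside 15.7% of all tested rows. These 6 rows made 4 groups of near-identical rows. Its most abundant rows at stage C, gma-miR172d and lus-miR172j, held the same reads and had 211 CPM in male and 197 CPM in bisexual buds, against 352 CPM in female and 352 CPM in monoecious female buds. This was 0.599 times the female level (95% interval 0.455 to 0.784) and 0.561 times the monoecious female level (0.436 to 0.718), with a log2 change of -0.79 (SE 0.39) and an edgeR adjusted p of 0.567. ath-miR172a did not follow, with 11 and 33 reads in male and bisexual buds, against 22 and 23 reads in female and monoecious female buds. The family sum had a log2 change of -0.55 (SE 0.40, edgeR adjusted p = 0.974).

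**Figure D3:**
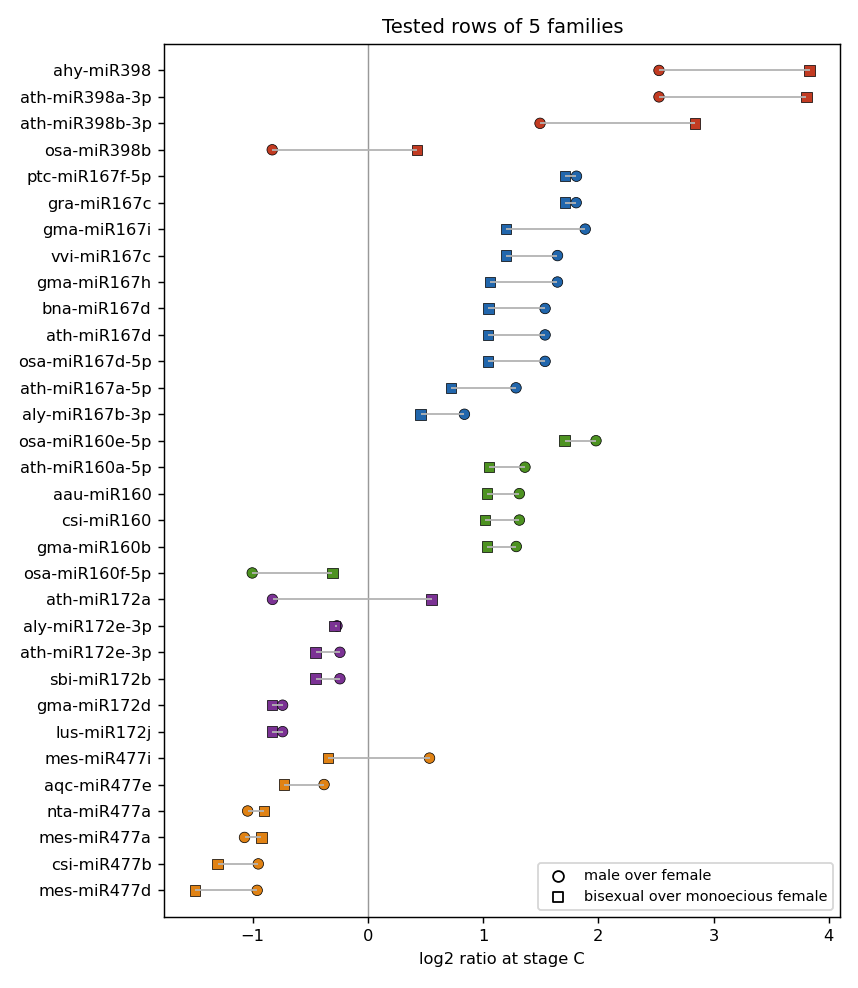
Log2 ratios of all tested rows of miR398, miR167, miR160, miR172 and miR477 at stage C, with circles for male over female and squares for bisexual over monoecious female buds. All 10 miR167 rows lie right of 0 for both symbols, while osa-miR398b, osa-miR160f-5p, ath-miR172a and mes-miR477i part from the other rows of their families.

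No family passed in any of the lists of families grouped by function. The median log2 change of all 90 features tested was 0.014. In the list of floral organ, meristem and stamen regulators, 11 families were tested, with a median of 0.010. In 4 of them, miR160 and miR167 included, both stamen-bearing libraries lay above both pistillate ones, and in 7 the classes overlapped. Over all 37 named families tested 10 lay above, and over all 90 features 18 did. The 4 members of the list with most reads did not pass and had log2 changes between -0.08 and 0.20. miR166, which acts on HD-ZIP III genes, had 0.20 (SE 0.14). In shares of all reads it took 45.2% in male and 37.4% in bisexual buds, against 37.6% in female and 38.6% in monoecious female buds, so the classes overlapped without scaling. miR159, which acts on GAMYB-like genes of anthers, had 0.04 (SE 0.17) with the bisexual library highest and the male library lowest. Its 2 rows of low unadjusted p, gma-miR159a-5p and gma-miR159e-5p, hold the same few reads, 13 and 10 in male and bisexual buds, against 4 and 3 in female and monoecious female buds (edgeR adjusted p = 0.438). miR319, which acts on TCP genes, had -0.08 (SE 0.21), and miR396, which acts on growth-regulating factors, had -0.08 (SE 0.33). Under other settings miR159 and, without 1 library, miR166, miR319 and miR396 changed sign.

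The auxin list had the highest median of the lists with more than 1 tested family, 0.57 over 4 families, with miR167 and miR160 at its top. In the other members the classes overlapped. miR390, which sets off trans-acting siRNAs that target further ARF genes, had -0.02 (SE 0.33), and miR393, which acts on TIR1/AFB auxin receptors, had -0.53 (SE 0.85). In miR393 the male library stood apart, with 24 reads, against 143, 150 and 115 reads in bisexual, female and monoecious female buds. Leaving out 1 library turned the sign of miR390 and miR393.

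In the copper and nutrient list, 4 families were tested, with a median of 0.10. miR408, which acts on copper proteins and is known to move with miR398 under low copper, overlapped between the classes. It had 580 CPM in male and 971 CPM in bisexual buds, against 1821 CPM in female and 777 CPM in monoecious female buds (log2 change -0.74, SE 0.57). Without the female library it had 0.03. The phosphate family miR399 had -0.01 (SE 0.47) and the sulphate family miR395 had 0.21 (SE 0.54), and both changed sign in other settings.

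In lists with few tested families, the sums of miR156, miR168 and miR482 were higher in both stamen-bearing libraries than in both pistillate ones. Those of miR172 and miR477 were lower, and none passed the test. Of all 90 features tested, 18 lay above and 10 below in this way. Taken singly, 0 of 2 tested miR156 rows lay above, and miR168 had 0 of 4 above and 2 below. In shares of all reads miR168 overlapped. It took 0.165% in male and 0.154% in bisexual buds, against 0.152% in female and 0.166% in monoecious female buds. The phase change list held miR156, an SPL regulator, at 0.41 (SE 0.53), beside miR172, for a median of -0.07, while miR535 and miR157 had too few reads to test. The silencing list had 0.09 (SE 0.35) for the AGO1 regulator miR168 and -0.04 (SE 0.40) for the AGO2 regulator miR403, a median of 0.03, and miR162 had 3 reads in all. Among regulators of NBS-LRR genes and phased siRNAs, miR482 had 0.40 (SE 0.42) and miR472 had 0.18 (SE 0.63), a median of 0.29. The flavonoid MYB regulator miR858 had -0.15 (SE 0.22), and miR828 was not tested. In the list of tree miRNAs that included miR477, miR530 had 0.44 (SE 0.55) and miR473 had -0.12 (SE 0.68), which was the median.

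Families reported from anthers or pollen in other plants gave no separation of the classes. miR845 had 15 reads in male and 8 in bisexual buds, against 5 reads in female and 14 in monoecious female buds, so that its direction differed between the systems (log2 change 0.54, SE 0.79). miR2118, a trigger of phased siRNAs in grass anthers, had 0 reads in male and 8 in bisexual buds, against 2 reads in female and 0 in monoecious female buds. The counting interval of its ratio left out equal levels in bisexual against monoecious female buds, with a lower bound of 2.09 and no upper bound. In male against female buds the interval held equal levels (0 to 5.79). For the libraries at 0, a count of 0 allows up to 3 reads, so a difference in miR2118 between male and female buds was not detectable at this depth. A difference shared by the dioecious and monoecious plants could therefore not be judged. Whole buds were sequenced, so fewer cells of a type and less of a miRNA per cell cannot be told apart.

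**Figure D4:**
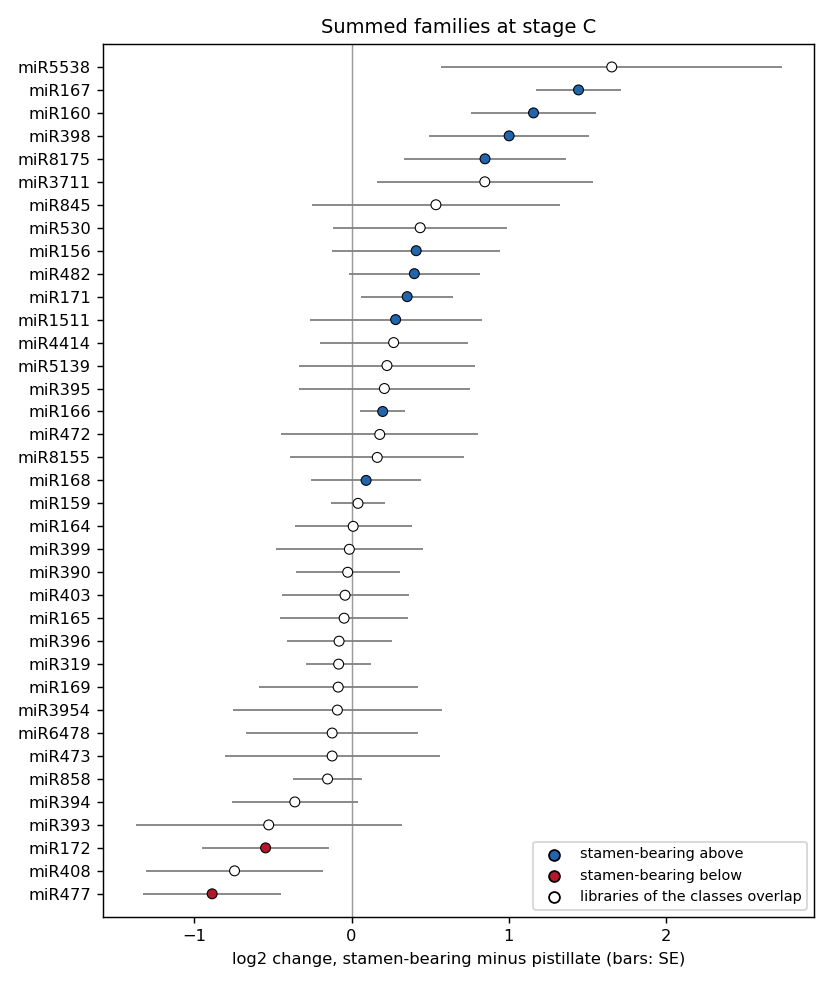
Log2 change (stamen-bearing minus pistillate, with SE from the edgeR fit) of the 37 named families tested after summing their rows, with filled points where the 2 libraries of 1 class lie on the same side of both libraries of the other. miR167 and miR160 lead the families whose stamen-bearing libraries lie above, miR477 and miR172 are the families whose stamen-bearing libraries lie below, and no family passed the test.

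Of the 53 predicted miRNAs tested, 8 lay above and 9 below both pistillate libraries in both stamen-bearing ones. Their shares, 15.1% and 17.0%, were close to those of all tested rows. The predicted miRNAs with most reads at stage C were not called in the fit of families or in that of rows. In the fit of families, which has its own TMM factors, the log2 changes were 0.08 (SE 0.36) in novel_3, -0.39 (SE 0.34) in novel_11 and -0.02 (SE 0.38) in novel_8. In the fit of rows they were -0.04, -0.51 and -0.15, so novel_3 differed in sign between the fits. Leaving out 1 library turned the sign of novel_3 and novel_8 in both fits. novel_60 was the only predicted miRNA inside the 2-fold rule, with 10 and 4 reads in male and bisexual buds, against 57 and 24 reads in female and monoecious female buds. Its ratio was 0.198 in the dioecious plants (95% interval 0.0900 to 0.391) and 0.171 in the monoecious ones (0.0430 to 0.496), and its log2 change of -2.41 (SE 0.76) had an edgeR adjusted p of 0.181. Without 1 library the change ranged from -3.41 to -1.52. It was called without the male library (adjusted p = 0.0350) and without a filter on low counts (0.0120), and in none of the other alternatives.

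Other predicted miRNAs had a large difference in 1 sexual system and a small one in the other, and those named here were chosen after their values were seen. novel_21 had 151 CPM in male and 631 CPM in bisexual buds, against 1861 CPM in female and 957 CPM in monoecious female buds, which was 0.0813 times the female level but 0.659 times the monoecious female level. novel_37 had 37.2 and 40.6 CPM in male and bisexual buds, against 350 and 66.2 CPM in female and monoecious female buds. novel_10 had 6899 and 3381 CPM in male and bisexual buds, against 2155 and 2515 CPM in female and monoecious female buds. In novel_18 the monoecious plants carried the difference, with 5.72 times the monoecious female level in bisexual buds (95% interval 4.96 to 6.62) and 1.10 times the female level in male buds (0.952 to 1.28). DESeq2 called these 4 rows and edgeR called none of them, with adjusted p between 0.159 and 0.287.

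The ratios of the 2 systems went opposite ways by at least 2-fold each in 2 of 211 rows (0.948%), novel_13 and novel_113. novel_13 stood at 3210 CPM in male buds, against 1601 CPM in female ones, and 1397 CPM in bisexual against 3345 CPM in monoecious female buds. novel_113 stood at 86.8 CPM in male buds, against 33.0 CPM in female ones, and 23.2 CPM in bisexual against 47.3 CPM in monoecious female buds. With RLE in place of TMM factors 0 rows met this rule, since novel_13 lay at a ratio of 2.005 in the dioecious plants and novel_113 at 0.491 in the monoecious ones.

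The same rows were then set against stage B, whose 4 libraries played no part in choosing them. The strains were the same at both stages. The 13 rows of miR167 and miR160 inside the 2-fold rule had the stage C direction in the dioecious plants of stage B and the opposite direction in the monoecious ones, in each case with a 95% counting interval that left out a ratio of 1. novel_60 had the stage C direction in both. The 3 miR398 rows were too scarce at stage B to show a direction, since in both systems their intervals held a ratio of 1 or there were no reads. In male against female buds the interval thus lay on the stage C side in 14 of 17 rows and on the other side in 0, against 34.1% and 20.9% of the 211 rows. In bisexual against monoecious female buds it lay on the stage C side in 1 of 17 rows and on the other side in 13, against 33.6% and 31.8% of the 211 rows. This way of counting was chosen after the values were seen. The bisexual library of stage B held 160129 reads, against 821235 in monoecious female buds of that stage, and the part of this depth in the ratios was not tested.

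In miR167 and miR160 the male to female ratios of stage B were nearer to 1 than those of stage C. ptc-miR167f-5p was 1.23 times the female level in male buds at stage B (95% interval 1.08 to 1.41), and 0.515 times the monoecious female level in bisexual buds (0.359 to 0.719). ath-miR160a-5p was 1.88 times the female level (1.40 to 2.53), and 0.167 times the monoecious female level from 5 against 128 reads (0.0533 to 0.400). ath-miR398a-3p was scarce at stage B, with 20 and 0 reads in male and bisexual buds, against 12 and 14 reads in female and monoecious female buds. novel_60 kept its direction, with 8 and 0 reads in male and bisexual buds, against 34 and 28 reads in female and monoecious female buds.

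Whether the flower class difference itself changed between stages was tested as an interaction in edgeR over all 8 libraries. 0 of 248 rows passed (0.0%). An unadjusted p below 0.05 was found in 7 rows, and the number called by DESeq2 was 0 as well. The interaction in ath-miR398a-3p was 3.23 on the log2 scale (SE 1.36) and in ptc-miR167f-5p 1.91 (SE 0.88), both at an edgeR adjusted p of 0.9998. Without the male library of stage B, 19 rows passed, so this count rested on a single library.

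**Figure D5:**
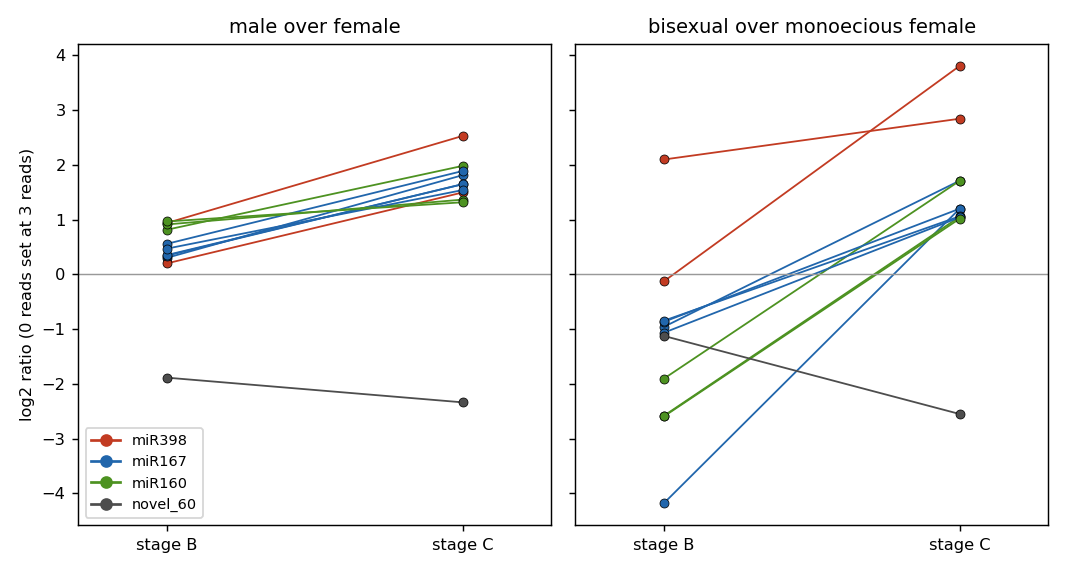
Log2 ratios of the 11 separating rows at stage B and stage C in male over female buds (left) and bisexual over monoecious female buds (right), with libraries at 0 reads set at 3 reads. On the left the 8 rows of miR167 and miR160 lie above 0 at both stages, and on the right they lie above 0 at stage C and below 0 at stage B. The 2 miR398 rows have too few reads at stage B to show a direction, and 5 of the 11 rows had 0 reads in bisexual buds of that stage.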

How the data were processed

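Small RNA libraries were made from 3 micrograms of total RNA per sample with the NEBNext small RNA kit, per the labels' protocols. The deposited table gave raw read counts for 471 miRNA rows and TPM values made by the authors, which equal CPM of the column totals within 4.29e-05. Only the counts were used. CASAVA 1.8 and Bowtie are named, per the submitters' processing notes. Genome build, miRBase release and mismatches are not given there. Rows keep the names in the deposited table, and no sequences were used.

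The stage C test was the quasi-likelihood test of edgeR 4.0.16 under R 4.3.3, after TMM scaling, on rows reaching 10 reads in 2 or more of the 4 libraries, with flower class as the only term, 2 residual degrees of freedom and a common dispersion of 0.146. SE is the size of the log2 change over the root of its F statistic. Rows of a family within 5% or 2 reads of each other in all 8 libraries count as near-identical. Families were tested after summing rows, so that reads shared between rows are counted repeatedly, with TMM factors of their own. Ratios use TMM-scaled counts, with 0 reads set at 3. The test was checked on simulated data whose rows were drawn independently at a single dispersion. That check does not cover reads shared between rows of a family. Alternatives were RLE factors, total counts, other filters, DESeq2 1.42.0, sexual system as a term, all 8 libraries, near-identical rows once, other folds, thinning and leaving out each library; families summed over 1 row per near-identical group, and the stage B alternatives and interval counts, were added after the data were seen.

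The comparison, its families and lists were chosen with earlier results of these data known. Named were the rows inside the 2-fold rule in both systems (1 per near-identical group), rows of opposite direction, called rows, and up to 4 families with most reads per list.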

Additional observations from a re-analysis of the deposited data

Results flagged for a closer look

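2 rows were singled out because their flower class ratios went opposite ways in the 2 sexual systems, by at least 2-fold in each. The difference between the systems was not tested. In novel_113 the log2 ratio of male over female buds exceeded that of bisexual over monoecious female buds by 2.42, from 35 and 15 reads in male and female buds and 12 and 25 reads in bisexual and monoecious female buds. In novel_13 the gap was 2.26, from 1295 and 728 reads in male and female buds and 722 and 1769 reads in bisexual and monoecious female buds. Read from the ratios alone, both rows had the same opposite directions at stage B. The ratios were 5.36 and 0.439 in novel_113 and 1.67 and 0.0669 in novel_13 in the dioecious and monoecious plants. Counting error was not taken into account in these stage B ratios, and the bisexual library of that stage held only 160129 reads. Male and female buds also differed in strain, so strain and sex cannot be told apart there.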

How the results depend on the processing

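The number of rows called by edgeR was 2. It was also 2 with RLE factors, total counts alone or a minimum of 50 reads. It was 9 without a filter and 16 with DESeq2. It was 0 with a sexual system block, with 8 libraries, with 8 libraries and sexual system, and with near-identical rows once. Leaving out 1 library gave 0 to 10 rows, with 10 without the male library and 0 without any of the other 3. It gave 0 to 2 families, with novel_37 and novel_41 called without the monoecious female library, and 0 to 19 rows in the class by stage test, with 19 without the male library of stage B. The number of families called, 0, was 2 without a filter (miR167 and novel_106) and 0 in the other alternatives with all 4 libraries. The 16 rows higher in both systems were 5 at a 3-fold rule and 10 with near-identical rows once, and 14 to 19 in the other alternatives. The 1 row lower in both was 12 at a 1.5-fold rule, 0 at a minimum of 100 reads and 2 after thinning. The 2 rows of opposite direction were 11 at 1.5-fold, 0 at 3-fold, 0 with RLE factors, 5 at a minimum of 20 reads and 1 at a minimum of 100 reads. Read from the ratios alone, with 0 reads set at 3, novel_60 and ath-miR398b-3p had the stage C direction at stage B in both systems. ath-miR398b-3p had too few reads at stage B to show a direction. The number of such rows, 2, was 4 with total counts alone. Leaving out a library leaves 1 system, so these counts have no such values.

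Signs of some uncalled changes turned. miR159 had -0.035 with RLE factors, -0.049 with total counts alone, -0.031 at a minimum of 50 reads and -0.035 with DESeq2. novel_3 had -0.0048, -0.016, -0.018 and -0.0047 in the same settings. miR399 had 0.027 with 8 libraries and 0.14 for its most abundant row. Without 1 library the log2 changes were -0.79 to 1.10 in novel_113, -0.83 to 0.58 in novel_13, -0.064 to 0.76 in miR156, -0.26 to 0.17 in miR159, -0.076 to 0.29 in miR166, -0.45 to 0.12 in miR319, -0.64 to 0.11 in miR396, -0.27 to 0.022 in miR390, -2.27 to 0.039 in miR393, -1.43 to 0.027 in miR408, -0.64 to 0.29 in miR399, -0.37 to 0.43 in miR395, -0.14 to 0.14 in miR168, -0.38 to 0.13 in miR403, -0.36 to 0.62 in miR472, -0.22 to 0.68 in miR530, -0.37 to 0.27 in novel_3 and -0.50 to 0.13 in novel_8. The cause was not tested. There were no replicates to pair, because each sex type and stage was 1 library. The fit with a sexual system block, which matches male with female and bisexual with monoecious female buds, called 0 rows.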
